A study of Mus musculus with 8 samples.

Results

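The chemokine ligands on the array are 34 genes of the 18193 genes measured. They were taken by symbol alone: all genes of the array's annotation whose symbol is Ccl, Cxcl, Cx3cl or Xcl followed by a digit, plus Ppbp, which is Cxcl7 under another name. Each gene is represented by the probe set, among those naming only that gene, with the highest mean over the 8 arrays. Of the 34 genes, 21 have 1 such probe set and the others have more, 52 in all. Another 4 chemokine probe sets name several near-identical genes (the Ccl19, Ccl21 and Ccl27 families) and are not among the 34. Pf4 (Cxcl4) also lies outside the symbol rule.

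Chemokines are small secreted proteins that direct the migration of leukocytes through G protein-coupled receptors, and their names give the spacing of the first cysteines (CC, CXC, CX3C or a single C). Inflammatory chemokines are induced at sites of infection or tissue damage and in tumors, while homeostatic ones position lymphocytes in lymphoid organs and epithelia. Activated CD8+ T cells themselves make Ccl3, Ccl4, Ccl5 and Xcl1, whereas macrophages, fibroblasts and endothelial cells are known sources of many others.

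CD8+CD44+CD62L- T cells, antigen-experienced cells with an effector phenotype, were sorted from tumors or from lymph nodes (LN) of C57BL/6 female mice aged 6 to 8 weeks. All mice carried subcutaneous tumors of MC38, a mouse colon carcinoma line, so that LN cells also came from tumor-bearing animals. The 4 groups of 2 arrays are tumor IR and tumor no IR, and LN IR and LN no IR, where IR is 5 Gy given to the whole body 5 h before the organs were taken and no IR is no irradiation. Each array holds RNA pooled from the cells of 4 mice, tumor and LN cells of a condition came from the same mice, and 2 independent experiments were performed. Tumors were digested with enzymes, spun in Percoll and enriched for CD8+ cells by positive selection before sorting, while LN were disrupted mechanically. Inguinal and axillary LN were pooled, whether or not they drained the tumor. Tissue and method of preparation therefore cannot be told apart.

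Values are log2 intensities, and a difference of 1 is a doubling of intensity. The arrays of a group correlated at 0.992 (tumor IR), 0.993 (tumor no IR), 0.966 (LN IR) and 0.982 (LN no IR) over all genes. Among the 34 chemokines, the SD of the difference between the arrays of a group was 0.87, 0.57, 0.79 and 0.69 in the same order, against 0.27, 0.27, 0.57 and 0.42 over all genes. A level under the lower quartile of its array (5.38 to 5.59) is not shown to exceed background. Ccl11, Cxcl11, Cxcl5 and Ppbp were under it on all 8 arrays, so that folds measured against such levels are inexact. A gene was called, and is said to have risen or fallen, where limma's adjusted p was below 0.1 and the log2 fold change reached 1 in either direction. The precision of each value is limited by having 2 arrays a group. Groups of 2 arrays can be separate without a call, and the share of all genes with separate groups was not counted.

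The sorted cells carried the genes of their label: the mean of 11 T cell identity genes, among them Cd3e and Cd8a, was between 11.08 and 11.79 on the 8 arrays, and none of the 11 rose or fell in any comparison. Markers of other cell types were present as well. The mean of 20 macrophage and monocyte markers was 8.74 and 10.14 in tumor IR and 10.01 and 10.83 in tumor no IR, against 6.57 and 6.81 in LN IR and 6.30 and 6.73 in LN no IR. Of these 20 genes, 15 were higher in tumor with IR and 18 without IR, beside 4.80% and 4.50% of all genes. The mean of 16 fibroblast markers was 8.90 and 8.96 in tumor IR and 8.64 and 8.30 in tumor no IR, against 5.83 and 5.94 in LN IR and 5.92 and 6.09 in LN no IR, with 12 of 16 higher in tumor with IR and 11 without IR. Of 11 B cell markers, 4 were lower in tumor with IR and 5 without IR, beside 2.00% and 1.04% of all genes. None of 8 neutrophil markers rose or fell. The macrophage and fibroblast lists were higher in tumor, as many chemokines were, and the part of any list in the chemokine differences was not tested. In sorted pools such as these, fewer cells of a type and less RNA per cell cannot be told apart.

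Chemokines that differed between the tissues were all higher in tumor T cells. With IR, 10 of the 34 were higher in tumor (29.4%, beside 4.80% of all genes) and 0 were lower (beside 2.00% of all genes), and the median log2 fold change was 0.38 over the chemokines and 0.06 over all genes. Without IR, 14 of the 34 were higher in tumor (41.2%, beside 4.50% of all genes) and 0 were lower (beside 1.04%), with a median of 0.48, against -0.09 over all genes. Ccl1, Ccl2, Ccl3, Ccl4, Ccl6, Ccl9, Cxcl1, Cxcl2 and Cxcl9 passed in both comparisons. Xcl1 passed with IR alone and Ccl7, Ccl8, Ccl12, Cxcl14 and Cxcl16 without IR alone, but no chemokine passed the test of a difference between these comparisons (smallest limma adjusted p = 0.758). The counts depend on single arrays, and leaving 1 out leaves 1 array in its group. The count with IR falls without tumor IR replicate 2, and that without IR falls without tumor no IR replicate 2. The counts over all genes fall there as well. With IR, 7 chemokines were called with array weights and 7 in a fit on only the groups compared. Those fits called 1086 and 899 of all genes, against 873 higher and 364 lower in the reported fit. The heat map of all members shows the values behind these calls.

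**Figure D1:**
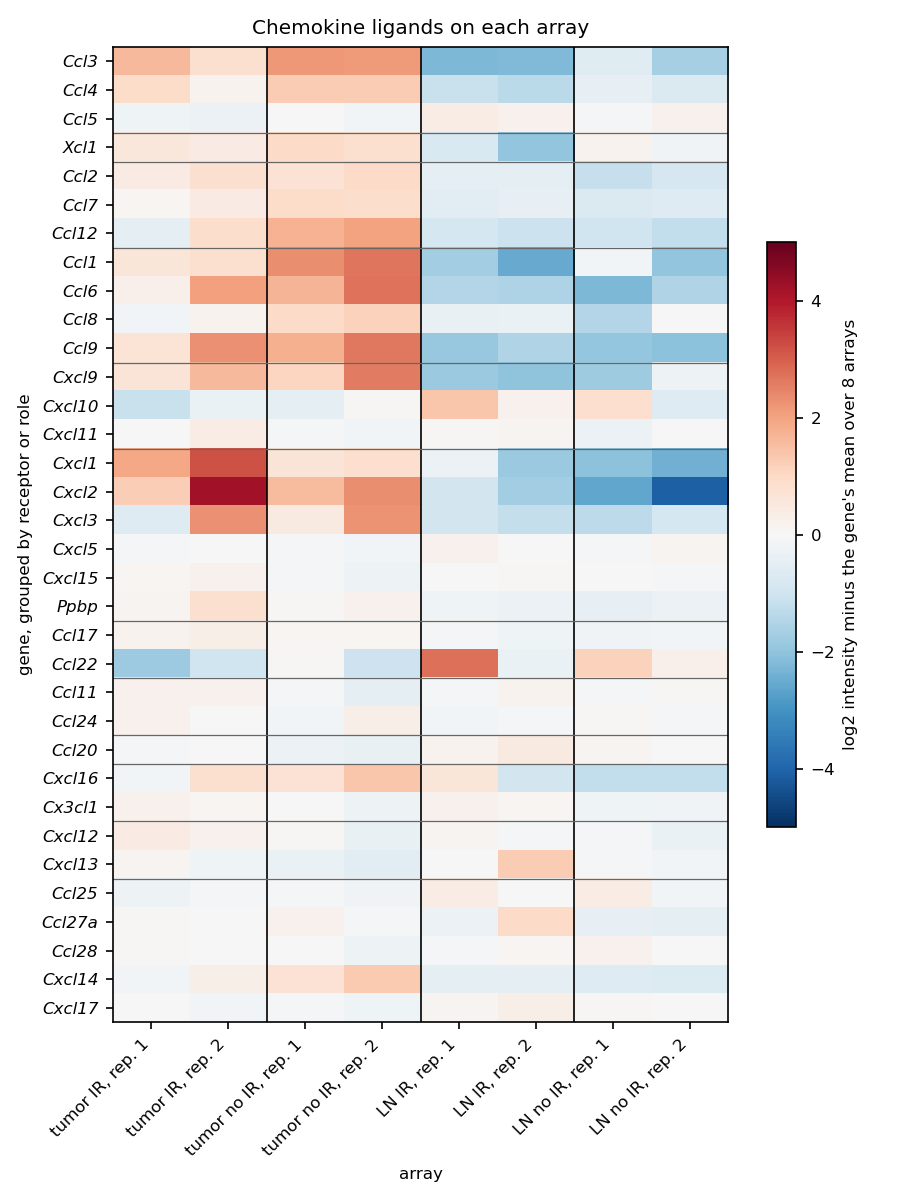
Each row is a chemokine ligand and each column an array; colour gives the log2 intensity minus that gene's mean over the 8 arrays, and grey lines separate receptor or role groups. Ccl3, Ccl9, Cxcl1 and Cxcl2 are red on the 4 tumor arrays and blue on the 4 LN arrays, whereas Ccl5 is pale throughout.

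Ccl3 and Ccl4, which attract T cells, monocytes and NK cells and are made by activated CD8+ T cells, were higher in tumor under both conditions. Ccl3 read 11.05 and 10.23 in tumor IR and 11.58 and 11.55 in tumor no IR, against 7.18 and 7.23 in LN IR and 8.83 and 7.76 in LN no IR. All 4 tumor arrays lay above all 4 LN arrays. The log2 fold change was 3.44 with IR and 3.27 without (SE 0.38, limma adjusted p = 0.00339 and 0.00412), and both calls held in all 20 alternatives. Ccl4 read 9.79 and 9.05 in tumor IR and 10.16 and 10.18 in tumor no IR, against 7.78 and 7.53 in LN IR and 8.48 and 8.16 in LN no IR. Again no LN array reached a tumor array, and the log2 fold change was 1.77 with IR and 1.85 without (SE 0.26, limma adjusted p = 0.0098 and 0.00848).

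Ccl5, a product of memory and effector CD8+ T cells, was near 12 on each array and did not pass. It read 11.81 and 11.74 in tumor IR and 12.00 and 11.91 in tumor no IR, against 12.38 and 12.26 in LN IR and 11.92 and 12.23 in LN no IR. The tumor IR arrays lay below the LN IR arrays, at a log2 fold change of -0.55 that is under the fold limit (limma adjusted p = 0.083), and the groups without IR overlapped. Without IR the difference of -0.12 changes sign when the arrays are scaled to the T cell identity genes.

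Xcl1, which attracts the cross-presenting dendritic cells that carry Xcr1, was higher in tumor with IR. It read 10.33 and 10.19 in tumor IR and 10.75 and 10.57 in tumor no IR, against 9.02 and 7.81 in LN IR and 9.94 and 9.59 in LN no IR. The 2 LN IR arrays were the lowest, and no LN array reached a tumor array. The log2 fold change was 1.85 with IR (SE 0.36, limma adjusted p = 0.0273) and 0.90 without IR (limma adjusted p = 0.265), and the difference between these was 0.95 (limma adjusted p = 0.782). With the arrays scaled to the T cell identity genes, Xcl1 was also called higher without IR, with 1319 of all genes called. The call with IR is lost without either tumor IR array (limma adjusted p = 0.156 without replicate 1 and 0.154 without replicate 2) and in a fit on only the groups compared.

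Of the Cxcr2 ligands, which recruit neutrophils, Cxcl1 and Cxcl2 were higher in tumor under both conditions, and Cxcl2 had the highest log2 fold change of the 34 genes in each. Their genes lie in 1 run of neighbours with Cxcl3 on chromosome 5, and the bases just before their starts are shown because these 3 genes share a motif. Capitals mark matches to the core of the NF-kB site, GGNNNTTCC on either strand, in the 110 bases before the RefSeq start (GRCm38.p6, plus strand, Cxcl1 at chr5:90891135-90891244, Cxcl2 at chr5:90903789-90903898 and Cxcl3 at chr5:90785991-90786100).
Cxcl1: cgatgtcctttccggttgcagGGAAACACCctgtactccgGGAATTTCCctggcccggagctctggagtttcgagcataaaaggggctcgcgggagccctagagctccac
Cxcl2: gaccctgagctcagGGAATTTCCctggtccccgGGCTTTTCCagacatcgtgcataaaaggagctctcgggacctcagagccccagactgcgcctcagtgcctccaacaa
Cxcl3: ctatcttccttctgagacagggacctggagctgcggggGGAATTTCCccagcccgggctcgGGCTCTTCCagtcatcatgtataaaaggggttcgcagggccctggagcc

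All 3 hold GGAATTTCC, which begins 70 bases before the start in Cxcl1, 96 in Cxcl2 and 72 in Cxcl3, and each holds a second core. In windows of 250 bases before to 50 after the start, the NF-kB core was in 11 of the 24 chemokines with a RefSeq promoter (45.8%) and in 18.5% of 32851 promoters. The core of the interferon-stimulated response element (GAAANNGAA, either strand) was in 5 of 24 (20.8%), beside 8.56% of all promoters, and that of the gamma-activated site (TTCNNNGAA, either strand) in 2 of 24 (8.33%), beside 8.30%. The 3 cores were searched independently. A match is a description of the letters, not a site shown to be bound.

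Cxcl2 read 9.16 and 12.13 in tumor IR and 9.50 and 10.27 in tumor no IR, against 7.02 and 6.20 in LN IR and 5.33 and 3.85 in LN no IR. The tumor arrays lay above the LN arrays, the tumor IR arrays differed by 2.98 from each other, and both LN no IR arrays were under the lower quartile. The log2 fold change was 4.04 with IR (SE 0.94, limma adjusted p = 0.0456) and 5.30 without (SE 0.94, limma adjusted p = 0.0211). The call with IR is lost without tumor IR replicate 2 (log2 fold change 2.55, limma adjusted p = 0.175) or LN IR replicate 2 (3.63, 0.124), with array weights and in a fit on only the groups compared, and the call without IR is lost without tumor no IR replicate 1 (5.68, 0.103), tumor no IR replicate 2 (4.91, 0.174) or LN no IR replicate 2 (4.55, 0.131). Cxcl1 read 9.98 and 11.24 in tumor IR and 8.71 and 8.91 in tumor no IR, against 7.76 and 6.19 in LN IR and 6.01 and 5.67 in LN no IR. Here too no LN array reached a tumor array, and the tumor IR arrays were the highest of the 8. The log2 fold change was 3.64 with IR (SE 0.56, limma adjusted p = 0.0117) and 2.97 without (SE 0.56, limma adjusted p = 0.0266). The other 2 probe sets of Cxcl1 were also called in both comparisons, at 3.61 and 4.25 with IR and at 3.75 and 4.22 without. For the set used, the call with IR held in all 20 alternatives, and the call without IR is lost without tumor no IR replicate 1 (limma adjusted p = 0.142), tumor no IR replicate 2 (0.191) or LN no IR replicate 2 (0.149).

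Cxcl3, named after its values were seen, read 3.06 and 5.97 in tumor IR and 4.13 and 5.95 in tumor no IR, against 2.78 and 2.51 in LN IR and 2.37 and 2.81 in LN no IR. Only replicate 2 of each tumor group was above the lower quartile, and the log2 fold change of 1.87 with IR and 2.45 without did not pass (limma adjusted p = 0.279 and 0.231). Some alternatives that keep all arrays of the compared groups did call Cxcl3 higher in tumor. Without IR these were the robust fit, a replicate block within each tissue and a fit on only the groups compared. With IR it was the replicate block within each tissue. Cxcl5 and Ppbp stayed under the lower quartile on each array, and Cxcl15, a lung chemokine, read between 5.52 and 5.97. Markers of neutrophils, the cells these ligands attract, averaged 6.58 and 6.51 in tumor IR and 6.30 and 6.12 in tumor no IR, against 6.10 and 6.46 in LN IR and 6.00 and 6.01 in LN no IR.

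The Cxcr3 ligands, which interferon-gamma induces and which draw effector T cells, did not move together. Cxcl9 and Cxcl10 are shown before their starts for comparison, since both hold the same pair of cores although only Cxcl9 was called. The sequences are the 220 bases before the RefSeq start (GRCm38.p6, minus strand, Cxcl9 at chr5:92328080-92328299 and Cxcl10 at chr5:92348890-92349109), and capitals mark the interferon-stimulated response element core, the first in each, and the NF-kB core.
Cxcl9: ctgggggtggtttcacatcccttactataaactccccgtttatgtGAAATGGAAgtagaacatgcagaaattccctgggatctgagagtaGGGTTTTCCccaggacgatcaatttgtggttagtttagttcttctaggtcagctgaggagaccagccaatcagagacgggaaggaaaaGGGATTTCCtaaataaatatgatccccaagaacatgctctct
Cxcl10: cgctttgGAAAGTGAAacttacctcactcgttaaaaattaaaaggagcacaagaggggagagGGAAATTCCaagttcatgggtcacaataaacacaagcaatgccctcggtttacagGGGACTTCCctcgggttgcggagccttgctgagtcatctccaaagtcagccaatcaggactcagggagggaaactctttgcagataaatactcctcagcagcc

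Cxcl9 read 8.34 and 9.30 in tumor IR and 8.76 and 10.30 in tumor no IR, against 5.84 and 5.68 in LN IR and 5.90 and 7.44 in LN no IR. All tumor arrays lay above all LN arrays. The log2 fold change was 3.06 with IR (SE 0.64, limma adjusted p = 0.0336) and 2.86 without (SE 0.64, limma adjusted p = 0.0509). The call with IR is lost without tumor IR replicate 1 (limma adjusted p = 0.103) or tumor IR replicate 2 (0.227) and with array weights, and that without IR is lost without tumor no IR replicate 2 (0.301) or LN no IR replicate 1 (0.176). A second, dimmer probe set of Cxcl9 was not called with IR (1.11) and was called without IR (1.60). Cxcl10 read 7.66 and 8.45 in tumor IR and 8.31 and 8.83 in tumor no IR, against 10.14 and 8.98 in LN IR and 9.61 and 8.13 in LN no IR. With IR both tumor arrays lay below both LN arrays, without IR the groups overlapped, and neither the log2 fold change of -1.51 with IR (limma adjusted p = 0.165) nor that of -0.30 without (limma adjusted p = 0.829) passed. Cxcl11 read 4.66 and 5.05 in tumor IR and 4.58 and 4.54 in tumor no IR, against 4.75 and 4.82 in LN IR and 4.41 and 4.67 in LN no IR, under the lower quartile throughout. Ifng, which encodes the inducer of all 3, read 12.53 and 12.07 in tumor IR and 12.47 and 12.41 in tumor no IR, against 10.73 and 8.38 in LN IR and 11.03 and 8.68 in LN no IR, and was not called (log2 fold change 2.75 with IR and 2.59 without, limma adjusted p = 0.116 and 0.191).

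The monocyte-attracting ligands of Ccr2 were all higher in tumor without IR. Ccl2 read 8.48 and 8.88 in tumor IR and 8.81 and 9.02 in tumor no IR, against 7.65 and 7.62 in LN IR and 6.95 and 7.26 in LN no IR. No LN array reached a tumor array, and the log2 fold change was 1.05 with IR (SE 0.19, limma adjusted p = 0.0223) and 1.81 without (SE 0.19, limma adjusted p = 0.00279). The call with IR is lost without tumor IR replicate 2 (0.85, limma adjusted p = 0.164). Ccl7 read 6.45 and 6.74 in tumor IR and 7.25 and 7.23 in tumor no IR, against 5.83 and 5.92 in LN IR and 5.64 and 5.71 in LN no IR. Its groups were separate in both comparisons, at a log2 fold change of 0.72 with IR, under the fold limit (limma adjusted p = 0.0352), and of 1.57 without IR (SE 0.15, limma adjusted p = 0.00201). Ccl12 read 5.08 and 6.41 in tumor IR and 7.27 and 7.53 in tumor no IR, against 4.65 and 4.47 in LN IR and 4.53 and 4.29 in LN no IR. All 4 LN arrays and 1 tumor IR array were under the lower quartile, and the log2 fold change was 1.19 with IR (limma adjusted p = 0.117) and 2.99 without IR (SE 0.39, limma adjusted p = 0.00642). With IR, Ccl12 was called higher in the robust fit and with a replicate block within each tissue.

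Ccl6 and Ccl9, a pair of rodent chemokines that bind Ccr1 on myeloid cells, had the highest log2 fold changes of the CC ligands without IR. Ccl9 read 9.97 and 11.60 in tumor IR and 11.07 and 11.93 in tumor no IR, against 7.42 and 7.79 in LN IR and 7.35 and 7.27 in LN no IR. The groups did not overlap, and the log2 fold change was 3.19 with IR and 4.19 without (SE 0.51, limma adjusted p = 0.014 and 0.00513). A second, dimmer probe set of Ccl9 was not called, at 0.53 with IR and 0.79 without. Ccl6 read 8.45 and 10.23 in tumor IR and 9.89 and 10.90 in tumor no IR, against 6.73 and 6.65 in LN IR and 5.92 and 6.69 in LN no IR. Again each tumor array lay above each LN array, at a log2 fold change of 2.65 with IR and 4.09 without (SE 0.59, limma adjusted p = 0.0407 and 0.00989), and its second probe set was called in both, at 2.63 and 4.36. The call with IR is lost without tumor IR replicate 2 (1.76, limma adjusted p = 0.184), with array weights and in a fit on only the groups compared.

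Ccl1 and Ccl8 are the ligands of Ccr8, a receptor of regulatory and Th2 cells in the mouse. Ccl1, itself a product of activated T cells, read 8.76 and 8.96 in tumor IR and 10.49 and 10.84 in tumor no IR, against 6.40 and 5.64 in LN IR and 8.01 and 6.19 in LN no IR. The tumor no IR arrays were the highest, no LN array reached a tumor array, and the log2 fold change was 2.83 with IR and 3.56 without (SE 0.55, limma adjusted p = 0.0258 and 0.0125). The call with IR is lost without tumor IR replicate 1 (limma adjusted p = 0.128) or tumor IR replicate 2 (0.173), and that without IR is lost without tumor no IR replicate 2 (0.118). Ccl8 read 6.98 and 7.29 in tumor IR and 8.08 and 8.27 in tumor no IR, against 6.76 and 6.77 in LN IR and 5.64 and 7.14 in LN no IR. The tumor arrays lay above the LN arrays of their condition. With IR the log2 fold change was 0.37 (limma adjusted p = 0.669), and Ccl8 was higher in tumor without IR at 1.79 (SE 0.43, limma adjusted p = 0.0639). That call is lost in 6 of 19 alternatives, among them each of the 4 that leave out a tumor array (limma adjusted p up to 0.338, without tumor no IR replicate 2).

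Cxcl16, a transmembrane chemokine that binds Cxcr6, read 10.69 and 11.62 in tumor IR and 11.52 and 12.22 in tumor no IR, against 11.41 and 9.91 in LN IR and 9.59 and 9.57 in LN no IR. The LN no IR arrays were the lowest and the groups with IR overlapped. With IR the log2 fold change was 0.50 (limma adjusted p = 0.631), and Cxcl16 was higher in tumor without IR at 2.29 (SE 0.52, limma adjusted p = 0.0518). That call is lost in 5 of 20 alternatives, among them each of the 4 that leave out an array without IR (limma adjusted p up to 0.33, without tumor no IR replicate 2). Cxcl14, a chemokine of epithelia and stroma, read 7.55 and 7.97 in tumor IR and 8.40 and 8.99 in tumor no IR, against 7.21 and 7.22 in LN IR and 7.03 and 6.97 in LN no IR. Its tumor arrays lay above its LN arrays in both comparisons, and the log2 fold change was 0.54 with IR (limma adjusted p = 0.213) and 1.70 without IR (SE 0.23, limma adjusted p = 0.00776). A second, dimmer probe set of Cxcl14 had 3.04 without IR. The plot of fold changes by member shows both comparisons side by side.

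**Figure D2:**
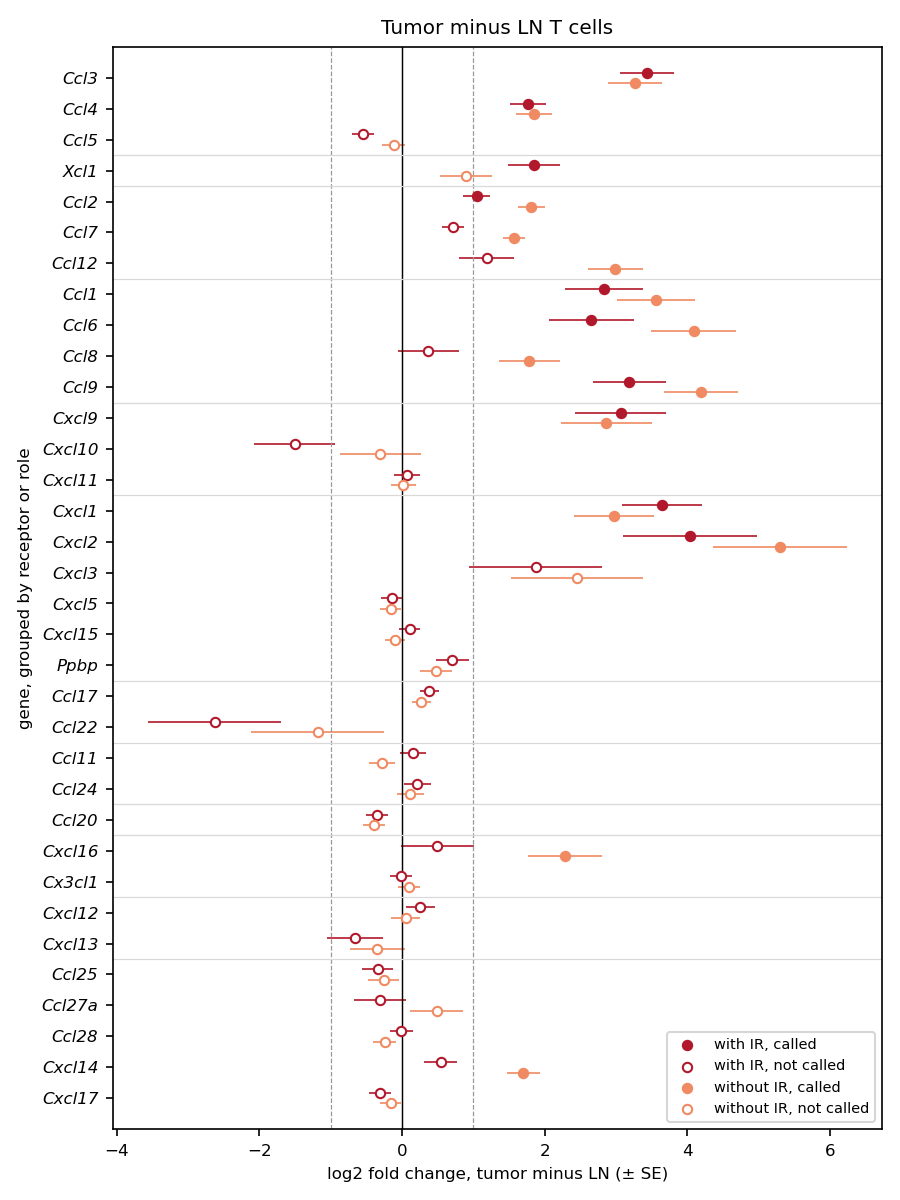
The x axis is the log2 fold change of tumor minus LN T cells with its standard error, for each chemokine ligand, with IR (dark red) and without IR (orange); filled points were called and dashed lines mark the fold limit of 1. All filled points lie to the right of 0, from 1.05 for Ccl2 with IR to 5.30 for Cxcl2 without IR.

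No chemokine was called lower in tumor, but Ccl22 was called lower with IR in 5 alternatives: the robust fit, the replicate block, the replicate block within each tissue, scaling to the T cell identity genes and leaving out LN IR replicate 2. Without LN IR replicate 2 and with the replicate block within each tissue, Cxcl10 was called lower as well. Cxcl13 was called lower with IR without LN IR replicate 1, and Ccl5 with no fold limit. Ccl22, a product of dendritic cells that attracts Ccr4-bearing T cells, was named after its values were seen and read 5.49 and 6.32 in tumor IR and 7.38 and 6.29 in tumor no IR, against 10.08 and 6.98 in LN IR and 8.46 and 7.58 in LN no IR. Each tumor array lay below each LN array of its condition, the LN IR arrays differed by 3.09, and the log2 fold change of -2.63 with IR and -1.18 without did not pass (limma adjusted p = 0.143 and 0.585). The mean of 9 dendritic cell markers was 7.41 and 7.42 in tumor IR and 7.44 and 7.52 in tumor no IR, against 7.55 and 7.05 in LN IR and 7.37 and 8.12 in LN no IR. One of the 9, Fscn1, a gene of mature dendritic cells, read 11.27 and 8.38 in LN IR and 9.51 and 9.09 in LN no IR, the same order as Ccl22 on these arrays. None of the other dendritic cell markers had this order. Siglech read 7.87 and 8.34 in LN IR and 8.29 and 10.71 in LN no IR. Cd209a and Itgax were also highest in LN no IR replicate 2, whereas Flt3, like Ccl22, was highest in LN IR replicate 1. The part of dendritic cells in the Ccl22 values was not tested. Its partner Ccl17 read between 7.93 and 8.42.

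The remaining members did not pass in any comparison between tissues in the reported fit. They are the eosinophil attractants Ccl11 and Ccl24, the Ccr6 ligand Ccl20, the endothelial and neuronal chemokine Cx3cl1, the stromal ligand Cxcl12, the B cell follicle chemokine Cxcl13 and the thymic, skin and mucosal ligands Ccl25, Ccl27a, Ccl28 and Cxcl17. Of these, Cxcl13 had the lowest value with IR, -0.66, and Ccl27a the highest without IR, 0.48.

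The effect of IR was compared within each tissue. In LN, 0 of the 34 chemokines rose or fell with IR, beside 1.05% of all genes. At an unadjusted limma p under 0.05 there were 5 (14.7%, against 14.3% of all genes), and a robust fit called 2, with 504 of all genes. A replicate block within each tissue, added after the correlations between same-numbered arrays were seen (0.430 in LN and 0.431 in tumor), called 3 chemokines in LN, Ccl1 and Xcl1 lower and Cxcl2 higher, with 505 of all genes. The median log2 fold change was 0.21, against 0.01 over all genes, with 27 of 34 positive. In tumor, 0 of the 34 rose or fell with IR, beside 0.0989% of all genes. At an unadjusted limma p under 0.05 there were 9 (26.5%, against 16.6% of all genes), and a robust fit called 4, with 177 of all genes. The median was -0.12, against 0.09 over all genes, with 15 of 34 positive. The difference between the IR effects in tumor and in LN was called for 0 of 34 chemokines and 0% of all genes. At an unadjusted limma p under 0.05 there were 5 chemokines (14.7%, against 5.63% of all genes), and the robust fit called 0 chemokines and 18 of all genes.

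Among the chemokines that CD8+ T cells make, values with IR were lower in both tissues for Ccl3, Ccl4 and Xcl1, whose per-array values are given above. Both IR arrays lay below both no IR arrays for each of these genes in each tissue, but none was called. Other uncalled members, such as Ccl11 and Ccl20 in tumor, also had separate groups with and without IR. Xcl1 had a log2 fold change of -0.40 in tumor and -1.35 in LN (SE 0.36, limma adjusted p = 0.601 and 0.181). Ccl3 had -0.92 in tumor and -1.09 in LN (SE 0.38, limma adjusted p = 0.325 and 0.266), and Ccl4 had -0.75 and -0.67 (SE 0.26, limma adjusted p = 0.3 and 0.308). For Ccl1 it was -1.80 in tumor, where the groups were separate, and -1.08 in LN, where they overlapped (SE 0.55, limma adjusted p = 0.29 and 0.413). Ccl5 had -0.19 in tumor and 0.25 in LN. The T cell identity genes also had negative values with IR, in 11 of 11 genes in tumor (median -0.31) and 10 of 11 in LN (median -0.39), with 0 called, and their part in these values was not tested. In LN the robust fit called Ccl3 and Xcl1 lower, with 504 of all genes called. Without LN IR replicate 1, Xcl1 was lower while Ccl27a and Cxcl13 were higher, but many more of all genes were called there as well.

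Cxcl1 and Cxcl2 had positive values with IR in both tissues. Cxcl1 had a log2 fold change of 1.80 in tumor, where both IR arrays lay above both no IR arrays, and of 1.13 in LN, where they did as well (SE 0.56, limma adjusted p = 0.296 and 0.398). Cxcl2 had 0.76 in tumor, where the groups overlapped, and 2.02 in LN, where they were separate (SE 0.94, limma adjusted p = 0.705 and 0.376). Fibroblast markers also had positive values with IR in tumor (16 of 16, median 0.38, 0 called) but not in LN (6 of 16, median -0.07). In tumor, neutrophil (6 of 8, median 0.36), epithelial (9 of 10, 0.33), platelet (6 of 7, 0.33) and endothelial markers (8 of 10, 0.21) were mostly positive too. The median over all genes was 0.09. Positive values were fewer for macrophage (1 of 20), dendritic cell (4 of 9) and T cell identity genes (0 of 11). Cxcl1 shared its order over the 4 tumor arrays with no list, and no list's part in its values was tested. Il1b, an inducer of both genes, read 8.53 and 10.11 in tumor IR and 9.02 and 10.43 in tumor no IR, against 8.50 and 7.85 in LN IR and 6.46 and 7.36 in LN no IR.

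The 3 Ccr2 ligands had a median log2 fold change with IR of -0.65 in tumor and 0.20 in LN, and the 4 ligands Ccl1, Ccl6, Ccl8 and Ccl9 had -1.05 in tumor and 0.33 in LN. Among them Ccl12 had -1.66 in tumor (limma adjusted p = 0.269), Ccl6 -1.06 (0.419), Ccl8 -1.04 (0.325), Ccl9 -0.72 (0.509), Ccl7 -0.65 (0.269) and Ccl2 -0.23 (0.563). In LN these genes had 0.15, 0.38, 0.38, 0.29, 0.20 and 0.53, whereas Ccl1, given above, was negative in both tissues. Cxcl14 had -0.94 in tumor and 0.22 in LN (limma adjusted p = 0.275 and 0.694). None of the differences between the tissues passed (smallest limma adjusted p = 0.758). Macrophage and monocyte markers had negative values with IR in tumor for 19 of 20 genes, with a median of -1.12 and 0 called, and a median of 0.18 in LN. Over the 4 tumor arrays, Ccl2, Ccl6, Ccl9, Cxcl9, Cxcl10 and Cxcl16 had the same order as the mean of the macrophage markers, Ccl1, Ccl8, Ccl12 and Cxcl14 that of the dendritic cell markers, and Ccl3, Ccl5 and Xcl1 that of the T cell identity genes. The fibroblast list shared its order with 4 members, the lymph node stroma list with 2, the B cell and platelet lists with 0, and the neutrophil, endothelial and epithelial lists with the same 5 (Ccl11, Ccl28, Cx3cl1, Cxcl12 and Cxcl13). With 4 arrays these orders are a description, the share of all genes with the same orders was not counted, and no list's part was tested. The dendritic cell means were 7.41 and 7.42 in tumor IR and 7.44 and 7.52 in tumor no IR, so that their order rests on small differences. In the robust fit, with array weights and in a fit on only the 2 tumor groups, 4 chemokines were called in tumor: Cxcl1 higher, and Ccl1, Ccl8 and Ccl12 lower. These fits called 177, 200 and 173 of all genes, against 18 in the reported fit.

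**Figure D3:**
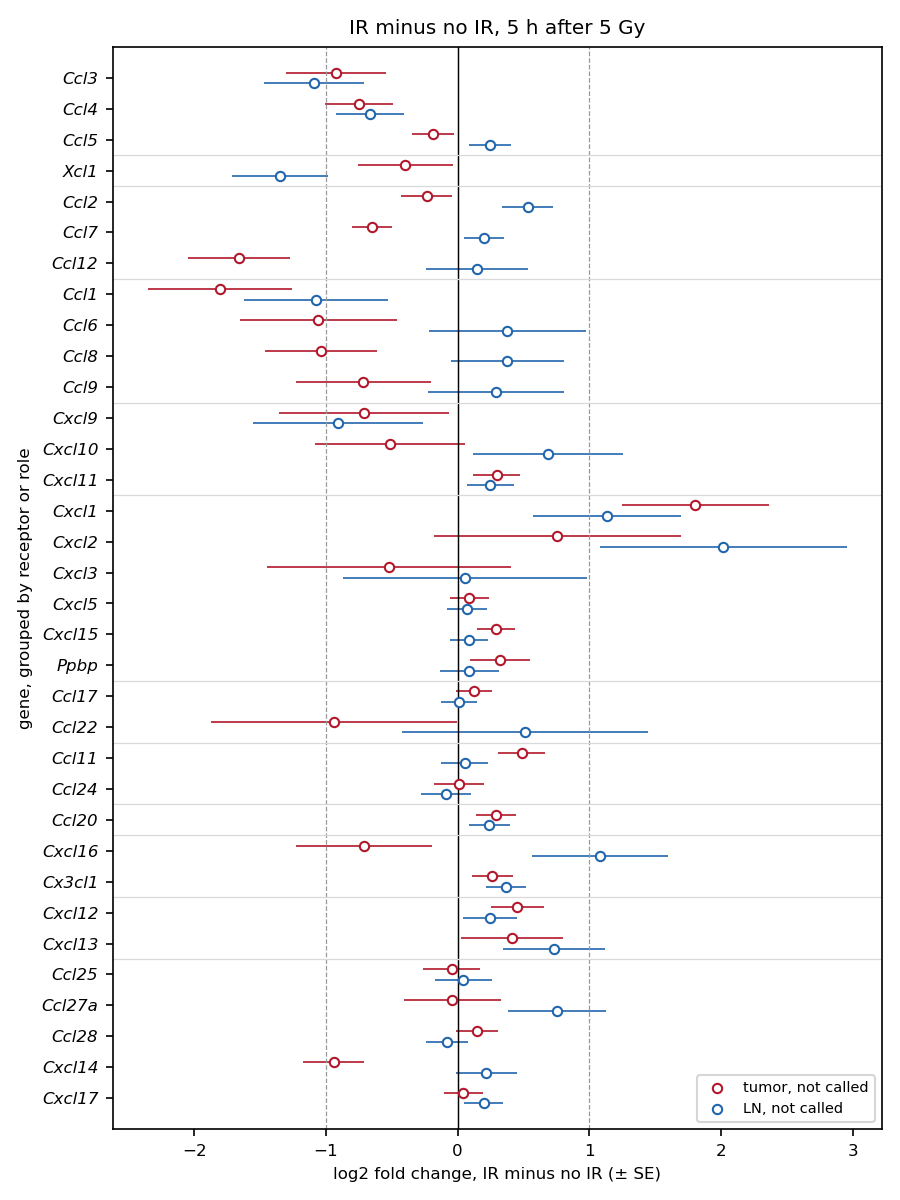
The x axis is the log2 fold change of IR minus no IR with its standard error, for each chemokine ligand, in tumor (red) and in LN (blue) T cells; open points were not called and dashed lines mark the fold limit of 1. No point is filled; values run from -1.80 for Ccl1 in tumor to 2.02 for Cxcl2 in LN.

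**Figure D4:**
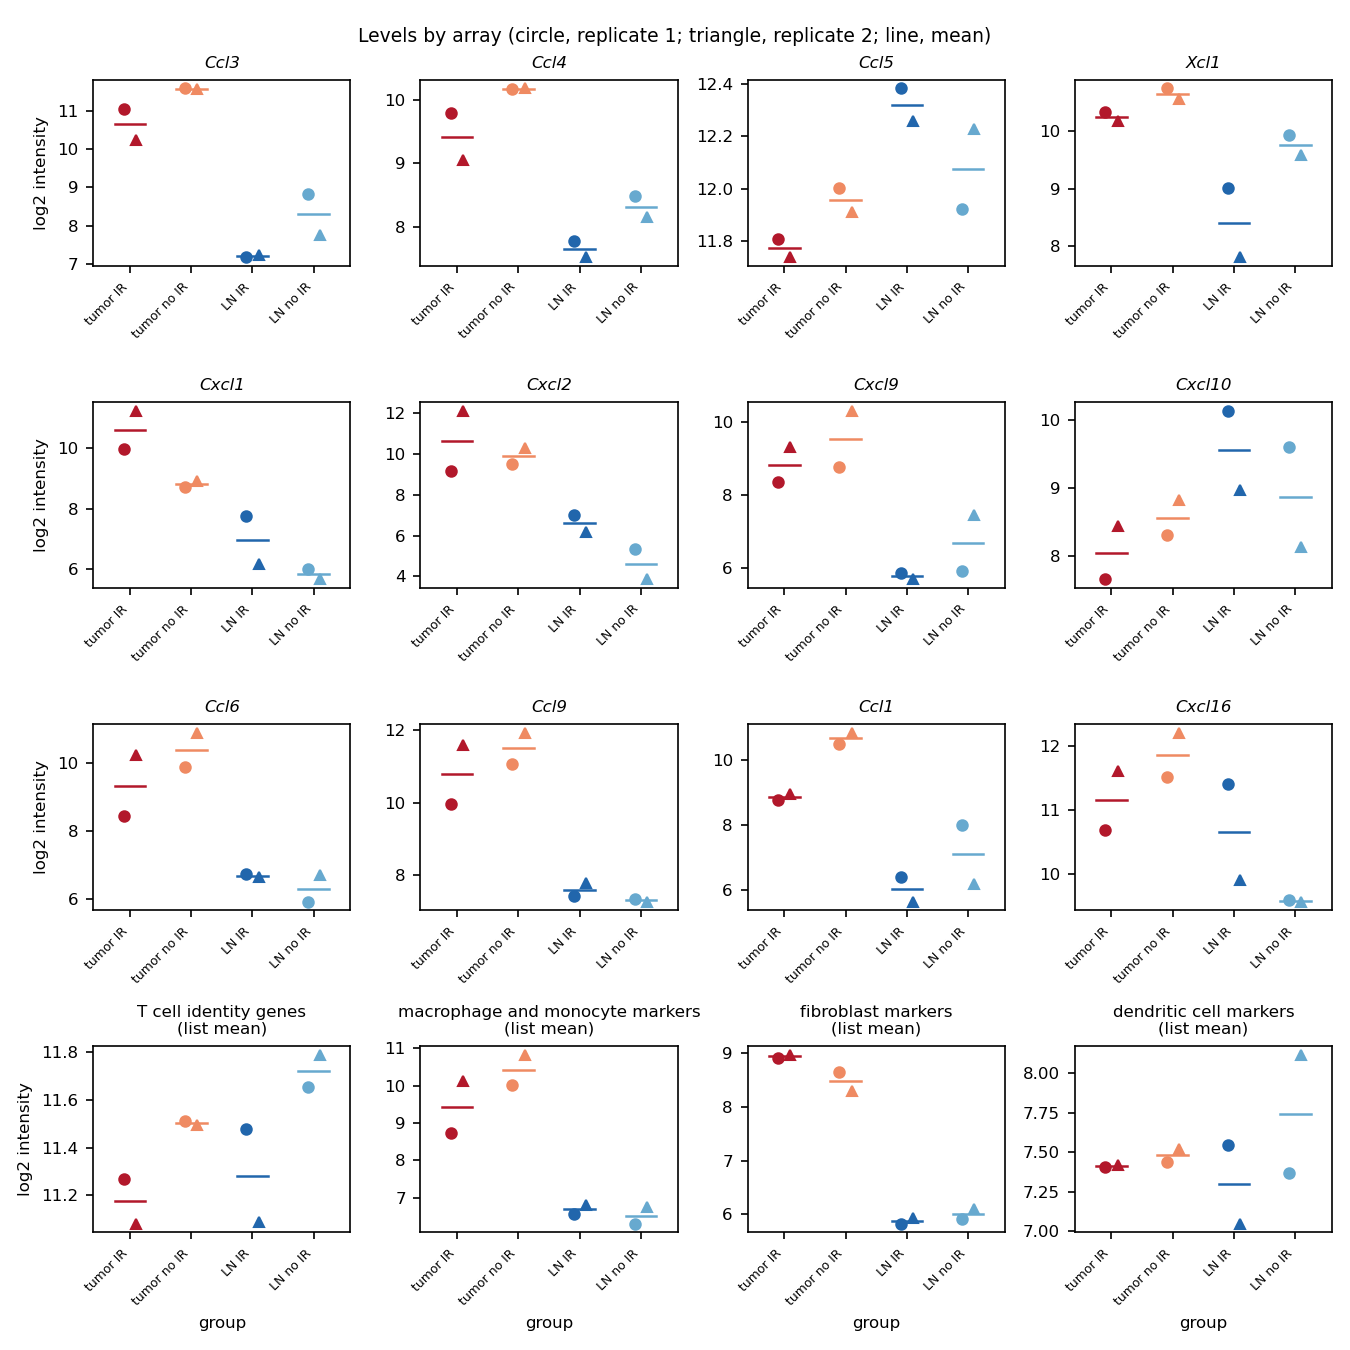
The y axis is the log2 intensity on each array (circle for replicate 1, triangle for replicate 2, line for the group mean) of 12 chemokine ligands, and in the bottom row the mean of 4 lists of cell type genes; y ranges differ between panels and do not start at 0. Among the tumor arrays, tumor IR replicate 1 has the lowest Ccl6, Ccl9 and macrophage list mean (8.74), and tumor IR replicate 2 has the lowest Ccl3.

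Many chemokine genes lie next to one another in the genome, and 20 of the 34 had another member as the next protein-coding gene in the RefSeq annotation (GRCm38.p6). Over all 34, 29.4% were higher in tumor with IR and 41.2% without IR, beside 4.80% and 4.50% of all genes. Whether neighbours differ from other members was not tested. Of the 6 neighbours Ccl2, Ccl7, Ccl11, Ccl12, Ccl8 and Ccl1, 2 were higher in tumor with IR and 5 without IR. Of the 5 neighbours Ccl5, Ccl9, Ccl6, Ccl3 and Ccl4, 4 were higher under each condition, Ccl5 being the exception. Of Cxcl3, Cxcl15, Cxcl1 and Cxcl2, 2 were higher under each condition. Neither Cxcl5 and Ppbp nor the 3 neighbours Ccl22, Cx3cl1 and Ccl17 passed.

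The receptors of these ligands moved in both directions. Of 21 measured chemokine receptors, 6 were higher and 4 lower in tumor with IR, beside 4.80% and 2.00% of all genes. Without IR, 5 were higher and 4 lower, beside 4.50% and 1.04% of all genes. Ccr1, the receptor of Ccl3, Ccl6 and Ccl9, read 7.66 and 9.46 in tumor IR and 9.33 and 10.59 in tumor no IR, against 4.85 and 5.45 in LN IR and 5.41 and 5.49 in LN no IR (log2 fold change 3.41 with IR and 4.51 without, limma adjusted p = 0.0208 and 0.00784). Ccr1 is also a gene of myeloid cells, and tumor IR replicate 1 was the lowest tumor array for it and for the macrophage list. The part of myeloid cells in the Ccr1 values was not tested. Ackr3, a scavenger of Cxcl12, read 8.41 and 8.53 in tumor IR and 7.81 and 7.69 in tumor no IR, against 3.37 and 3.37 in LN IR and 3.62 and 3.48 in LN no IR, the LN levels being under the lower quartile. Cxcr6, the receptor of Cxcl16, was higher in tumor at 1.43 with IR and 1.07 without, and Cx3cr1, the receptor of Cx3cl1, at 3.25 and 2.79. Ccr2 was higher with IR alone, at 1.53 (1.22 without IR, not called).

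The receptors that were lower in tumor were Ccr4, Ccr7, Cxcr3 and Cxcr5, which take the ligands Ccl17 and Ccl22, Ccl19 and Ccl21, Cxcl9 and Cxcl10, and Cxcl13. Cxcr3 read 9.65 and 9.83 in tumor IR and 10.54 and 10.76 in tumor no IR, against 11.54 and 11.36 in LN IR and 12.16 and 12.35 in LN no IR. Its tumor arrays lay below its LN arrays, at a log2 fold change of -1.71 with IR and -1.61 without (limma adjusted p = 0.00189 and 0.00242). Ccr4 was lower by a log2 fold change of -2.97 with IR and -2.89 without, Ccr7 by -2.10 and -1.83, and Cxcr5, a receptor that B cells also carry, by -2.22 and -2.03.

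Ccrl2, an atypical receptor that binds the chemoattractant chemerin, was the receptor that rose with IR in LN. It read 9.45 and 10.03 in tumor IR and 9.48 and 9.50 in tumor no IR, against 9.16 and 8.23 in LN IR and 6.46 and 6.64 in LN no IR. The LN no IR arrays stood below the other 6, and the log2 fold change with IR in LN was 2.14 (SE 0.32, limma adjusted p = 0.0494). In tumor it was higher than in LN at 1.05 with IR and 2.93 without. Of 12 measured inducers and regulators of chemokine genes, 3 were called in any comparison. Il1b was higher in tumor without IR (2.81), Irf7, an interferon-induced transcription factor, was lower in tumor with IR (-1.42), and Zfp36, which promotes the decay of cytokine and chemokine mRNAs, rose with IR in LN (1.27, limma adjusted p = 0.0858).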

How the data were processed

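Gene expression was measured in 8 samples on Affymetrix whole-genome mouse arrays. The authors corrected background, normalised and summarised the arrays by RMA (version: not given in the sources used here), then deposited log2 values for 45101 probe sets, which were used as deposited. RMA gives no detection call, and its quantile step forces the arrays to 1 distribution. By the array annotation, 34945 probe sets name 1 gene, 932 several, 9160 none and 64 are controls. Least-squares fits of the 4 groups were made with limma 3.58.1 (R 4.3.3) over 35877 annotated probe sets, with empirical Bayes moderation (4 residual and 3.13 prior degrees of freedom) and Benjamini-Hochberg adjustment. The study's own fit was robust and intersected with SAM, which was not run. The script was tested on simulated data. All 34 members matched RefSeq by Entrez ID; promoters are from RefSeq (GRCm38.p6). Probe sets of similar chemokines may share signal.

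Per-array values are given for members called in any comparison, for Ccl3, Ccl4, Ccl5, Xcl1, Cxcl9, Cxcl10 and Cxcl11, and for the 5 with the highest means; receptors and inducers are named where called. The members and lists were chosen with earlier results of these data known. Alternatives were a robust fit, array weights, a variance trend, a replicate block, other thresholds, another probe set rule, fits restricted to the groups compared, cyclic loess, a filter on dim probe sets, T cell identity scaling and leaving out each array.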

Additional observations from a re-analysis of the deposited data

How the results depend on the processing

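Of 24 member calls, none changed sign. Leaving out 1 array gave 4 to 12 chemokines called between tumor and LN with IR (4 without tumor IR replicate 2, which loses Ccl1, Ccl2, Ccl6, Cxcl2, Cxcl9 and Xcl1; 12, of which 11 are higher and 1 lower, without LN IR replicate 1) and 8 to 14, all higher, without IR (8 without tumor no IR replicate 2, which loses Ccl1, Ccl8, Cxcl1, Cxcl16, Cxcl2 and Cxcl9). For IR in LN the range was 0 to 3, with 3 without LN IR replicate 1, and for the difference between IR effects 0 to 2 (Ccl27a and Xcl1, without LN IR replicate 1). Where leaving out LN IR replicate 1 added chemokine calls, many more of all genes were called as well. Where leaving out tumor IR replicate 2 or tumor no IR replicate 2 lost chemokine calls, fewer of all genes were called as well. The robust fit called 2 chemokines for IR in LN, with 504 of all genes. For IR in tumor, the robust fit, array weights and a fit on only the groups compared called 4 each. These fits called 177, 200 and 173 of all genes, against 18 in the reported fit. With IR, array weights and a fit on only the groups compared called 7 between tissues, with 1086 and 899 of all genes. The causes were not tested.

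Same-numbered samples shared deviations within a tissue (correlations 0.431 in tumor and 0.430 in LN) and not across tissues (-0.137 to 0.0686). The labels do not say what a number marks, and it was not used as a pair in the reported fit. With a replicate block, 11 and 14 chemokines were called in tumor against LN with and without IR (Ccl22, lower, being the one added with IR), and 0 in each of the other 3 comparisons. A replicate block within each tissue, chosen after seeing the data, gave 14 (12 higher, 2 lower) and 15, and 3 for IR in LN (Ccl1 and Xcl1 lower, Cxcl2 higher).

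Scaling to the T cell identity genes moved the median of all genes by 0.11 and 0.22 in tumor against LN with and without IR, by 0.33 and 0.44 for IR in tumor and LN, and by -0.11 for their difference. Under it the share of all called genes that were higher was 81.0% in tumor against LN with IR (70.6% as deposited) and 97.6% for IR in LN (74.9% as deposited). Between tissues it changed the sign of Ccl28 and Cx3cl1 with IR and of Ccl5, Cxcl15, Cxcl17 and Cxcl5 without. For IR it changed the sign of Ccl2, Ccl25, Ccl27a and Ccl5 in tumor and of Ccl24 and Ccl28 in LN. None of these was called in the comparison where it changed.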
